A study of Mus musculus with 8 samples.

Results

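Open chromatin at the ends of long non-coding RNA (lncRNA) genes was described in DN3 thymocytes, CD4- CD8- T-cell precursors at the step where the pre-T-cell receptor is first tested. The peaks of 4 ATAC-seq libraries were merged wherever they overlapped by 1 bp, and a merged region was kept if it lay on an autosome, within 1 kb of either annotated end of a lncRNA gene and more than 5 kb from both ends of every protein-coding gene. Of 176413 autosomal regions, 5885 (3.34%) met this rule. The rule used position and gene annotation only, with no filter on a difference between the genotypes. The merged set came from the peak calls, however, so a region could enter through the lists of 1 genotype alone. Wild-type lists alone brought in 646 regions through both lists, and 562 and 266 through a single list. For the mutant lists these numbers were 35, 57 and 39. All 4 libraries came from C57BL/6 mice. In 2 libraries both copies of NMe, an enhancer of Myc that responds to Notch, were wild type, and in the other 2 both copies carried mutations in GATA site 1 and in GATA site 2, sequences that GATA factors such as Gata3 can bind. The labels give no age, sex, sorting gate or number of animals, and do not say whether libraries of one genotype came from separate mice, so a p-value here reflects the spread of these 4 libraries alone, which may be technical. The series held 8 samples, and its 4 leukaemia samples were not analysed here.

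LncRNAs are transcripts with no long open reading frame that are made by the polymerase that makes mRNAs. Their 5′ ends are promoters, which are usually free of nucleosomes when used, but many lncRNA genes start at elements that look like enhancers and make little stable RNA, and many are known only from gene models. Some have established roles: Neat1 organises nuclear bodies, and Kcnq1ot1 and Airn silence neighbouring genes on one parental chromosome. Hosts such as Dancr, Snhg5 and Dleu2 carry small nucleolar RNAs (snoRNAs) or microRNAs (miRNAs) in their transcripts. ATAC-seq reports where a transposase can reach DNA. An open end shows access and not transcription.

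The start windows of 7 lncRNAs are shown because each lay at a region called in all 4 libraries and together they span the range of promoter types met below: 2 belong to the strongest regions of all, and 5 to lncRNAs with known hosts or roles. Each runs 5′ to 3′ on the strand of the gene, from 250 bases before the start to 50 bases from it on, from RefSeq on GRCm38.p6. Capitals mark matches, on either strand, to 6 short motifs of factors that act in early T cells. Zinc fingers of the Gata3 kind are represented by AGATAA. Runx factors are represented by TGTGGT, and Ets factors by GGAAGT. The E-box of E proteins was searched as CAGGTG. For Tcf7 and Lef1 the letters were TTCAAAG, and for Rbpj, the DNA-binding partner of Notch, TGGGAA. The windows are chr12:115703580-115703879 on the plus strand for Gm40900, chr10:120857379-120857678 plus for Gm15910, chr5:74092810-74093109 plus for Dancr, chr9:88522848-88523147 minus for Snhg5, chr2:119594046-119594345 plus for Oip5os1, chr16:77329078-77329377 plus for Mir99ahg, and chr14:61682324-61682623 minus for Dleu2.
Gm40900: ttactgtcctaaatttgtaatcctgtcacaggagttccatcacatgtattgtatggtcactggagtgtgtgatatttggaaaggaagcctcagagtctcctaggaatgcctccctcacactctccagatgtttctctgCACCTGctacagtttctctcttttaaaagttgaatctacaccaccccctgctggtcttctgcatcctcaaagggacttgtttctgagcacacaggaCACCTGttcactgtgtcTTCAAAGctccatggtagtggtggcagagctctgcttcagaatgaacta
Gm15910: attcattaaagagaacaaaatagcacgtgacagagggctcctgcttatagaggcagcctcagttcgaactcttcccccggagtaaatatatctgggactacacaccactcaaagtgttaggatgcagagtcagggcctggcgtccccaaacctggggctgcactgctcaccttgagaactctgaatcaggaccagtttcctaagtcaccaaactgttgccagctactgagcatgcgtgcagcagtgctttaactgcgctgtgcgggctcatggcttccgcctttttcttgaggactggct
Dancr: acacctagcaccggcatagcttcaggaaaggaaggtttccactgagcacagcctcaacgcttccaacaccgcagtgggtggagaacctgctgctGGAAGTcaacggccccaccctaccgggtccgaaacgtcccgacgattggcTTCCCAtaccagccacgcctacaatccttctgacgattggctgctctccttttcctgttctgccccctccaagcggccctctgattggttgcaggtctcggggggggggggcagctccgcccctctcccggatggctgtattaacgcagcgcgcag
Snhg5: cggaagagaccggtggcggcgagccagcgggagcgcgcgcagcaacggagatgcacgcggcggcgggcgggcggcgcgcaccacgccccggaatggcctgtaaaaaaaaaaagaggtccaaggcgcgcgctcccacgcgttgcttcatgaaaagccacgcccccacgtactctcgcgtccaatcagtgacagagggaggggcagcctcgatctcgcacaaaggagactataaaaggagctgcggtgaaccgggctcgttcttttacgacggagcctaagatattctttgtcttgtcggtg
Oip5os1: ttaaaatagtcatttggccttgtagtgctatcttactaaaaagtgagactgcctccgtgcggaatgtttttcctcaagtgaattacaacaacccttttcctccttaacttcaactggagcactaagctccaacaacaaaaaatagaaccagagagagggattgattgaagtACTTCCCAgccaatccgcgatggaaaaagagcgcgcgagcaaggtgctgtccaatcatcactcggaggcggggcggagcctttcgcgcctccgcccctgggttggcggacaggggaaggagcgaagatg
Mir99ahg: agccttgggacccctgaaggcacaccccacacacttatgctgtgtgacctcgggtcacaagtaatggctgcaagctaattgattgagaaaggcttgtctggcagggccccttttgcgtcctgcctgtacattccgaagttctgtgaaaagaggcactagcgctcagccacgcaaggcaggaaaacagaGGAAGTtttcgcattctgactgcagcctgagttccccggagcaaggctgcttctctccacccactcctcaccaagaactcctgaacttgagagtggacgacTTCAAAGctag
Dleu2: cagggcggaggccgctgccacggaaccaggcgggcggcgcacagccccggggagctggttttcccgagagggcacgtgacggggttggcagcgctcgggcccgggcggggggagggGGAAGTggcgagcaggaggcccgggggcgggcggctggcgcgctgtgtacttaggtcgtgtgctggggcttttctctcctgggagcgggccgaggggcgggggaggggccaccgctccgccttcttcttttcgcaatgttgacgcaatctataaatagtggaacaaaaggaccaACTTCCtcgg
Gm40900 held 2 E-box matches and a Tcf7 and Lef1 match with no CpG in its 300 bases. Dancr held an Ets and an Rbpj match, Mir99ahg an Ets and a Tcf7 and Lef1 match, and Dleu2 had 2 Ets matches. In Oip5os1 the Ets and Rbpj matches overlap, so its capitals form 1 run. Gm15910 and Snhg5 held none of the 6 motifs. Snhg5 had 36 CpGs, the most of these windows, and Dleu2 had 29. A match is a description of letters and not of binding.

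The tissue label was checked against marker genes. All 10 DN3 markers (Ptcra, Rag1, Rag2, Il2ra, Cd3e, Notch1, Dtx1, Bcl11b, Gata3 and Tcf7) had a peak within 1 kb of an end in every library. Markers of other cells were also called: of 5 B-cell genes 3 to 4 per library, of 5 myeloid genes 4 in each wild-type and 2 in each mutant library, of 4 autosomal erythroid genes 3 and 2, of 5 NK genes 4 in each library, and of 5 thymic stroma genes 5 and 4. Ms4a1, Elane, Hba-a1 and Ncr1 were called in none. A peak at a gene end does not count cells, and the part of other cells in the results below was not tested. The wild-type lists held 165763 and 153032 autosomal peaks and the mutant lists 118238 and 116435. Read counts are not in the lists, and depth is therefore unknown.

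The 5885 regions lay at 4329 lncRNA genes, of which 2951 had 1 region, 1058 had 2 and 320 had 3 to 5. A single lncRNA gene was within reach of 5694 regions, and 191 regions served 2 or 3 genes. Regions were 64 to 6886 bp wide, with a median of 447 bp. The median distance to the nearest end of a protein-coding gene was 26.8 kb, and 820 regions (13.9%) were more than 100 kb away. The body of a protein-coding gene surrounded 1863 regions (31.7%). The lncRNA had a gene name rather than a clone or model number at 254 regions. The end itself lay inside 1720 regions (29.2%). Strand was known for 9291 of 12408 autosomal lncRNA genes (74.9%), and statements on 5′ or 3′ ends cover those genes only.

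At 5′ ends of lncRNA genes the chromatin was open more often than around them, and at 3′ ends it was not. The first base of the gene lay under a peak at 14.6% and 14.2% of 5′ ends in the wild-type libraries and at 13.3% and 13.4% in the mutant libraries. Beyond 2500 bp on either side, the mean share was 4.07%, 3.83%, 3.99% and 3.79% in the same order, so each of the 4 libraries had its maximum at the 5′ end. The last base of the gene was covered at 2.40%, 2.32%, 2.73% and 2.64% of 3′ ends, below the flanking 4.09%, 4.03%, 4.02% and 3.79% in every library. Protein-coding genes had the same shape with a higher 5′ share: 57.9%, 57.5%, 56.5% and 56.4% of their first bases were covered, and 3.49%, 3.43%, 4.30% and 4.16% of their last bases.

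**Figure D1:**
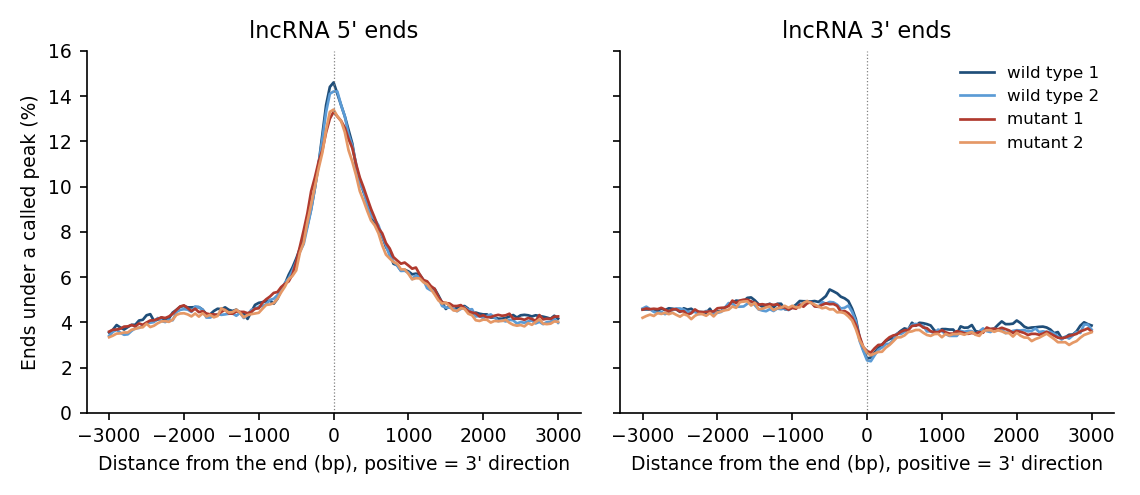
Share of lncRNA gene ends (y axis, %) that lay under a called peak at each distance from the end (x axis, bp), for 5′ ends (left) and 3′ ends (right) more than 5 kb from protein-coding ends. Lines are the 4 libraries; at 0 bp they peak between 13.3% and 14.6% on the left and drop to between 2.32% and 2.73% on the right.

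Counted within 1 kb, 31.2% and 29.8% of 7038 eligible 5′ ends had a peak in the wild-type libraries and 25.3% and 25.5% in the mutant libraries. Of 7507 eligible 3′ ends the shares were 21%, 19.7%, 16.4% and 16.4%. A peak in all 4 libraries was present at 1674 of the 5′ ends (23.8%) and at 1132 of the 3′ ends (15.1%). Among 4489 genes over 5 kb long with both ends eligible, 731 (16.3%) had a region called in all 4 libraries at the 5′ end only, 318 (7.08%) at the 3′ end only and 222 (4.95%) at both, while 3218 had one at neither. Regions reaching only 5′ ends had a median width of 497 bp, those reaching only 3′ ends 362 bp, and the 227 regions that reached both kinds 828 bp.

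Regions that held the end itself were called more often than regions beside it. Of the 1720 that held an end, 86.0% were called in all 4 libraries and their median width was 893 bp. The share was 54.6% for the 1208 regions up to 250 bp away, 54.0% for the 1035 beyond that and up to 500 bp, and 53.1% for the 1922 from there to 1000 bp, all with median widths of 319 to 328.5 bp. Wide regions hold a given base more readily than narrow ones, and width was not held fixed in these shares. At the edge of the rule, the 387 regions in the last 100 bp inside the 1 kb limit were called in all 4 libraries in 55.3% of cases and the 368 in the first 100 bp outside it in 57.6%. Those 5 to 6 kb from a protein-coding end gave 64.6% (257 regions) and those at 4 to 5 kb 65.7% (245 regions). Regions inside and outside protein-coding genes had similar shares, 62.4% and 63.6%.

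Most regions at lncRNA ends were called in every library. All 4 libraries had a peak in 3719 of them (63.2%, exact binomial 95% interval 61.9 to 64.4, counting error only), beside 56.7% of all 176413 autosomal regions. The share was 80.2% of 20227 regions within 1 kb of protein-coding gene ends and 52.9% of 124499 distal regions away from lncRNA ends, so lncRNA ends lay between these. A single library had the peak in 924 regions (15.7%, against 20.1% of all regions), 828 of them wild-type libraries. Of the 183 regions at least 2 kb wide, 181 were called in all 4.

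**Figure D2:**
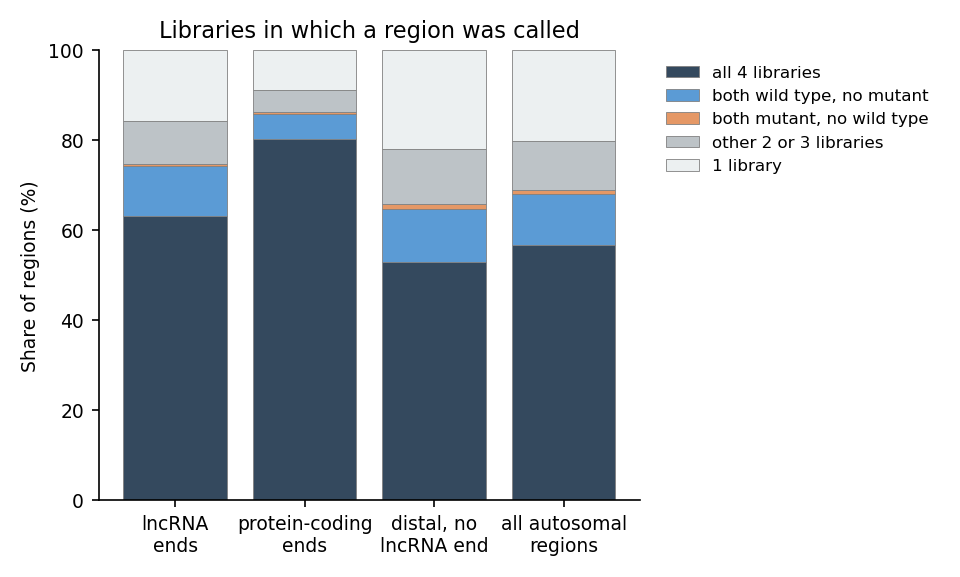
Share of regions (y axis, %) by the libraries in which they were called, for regions at lncRNA ends, at protein-coding ends, distal regions away from lncRNA ends, and all autosomal regions. The darkest part, regions called in all 4 libraries, is 63.2%, 80.2%, 52.9% and 56.7% of the bars from left to right.

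The comparison of genotypes asks what mutation of the NMe GATA sites does to open chromatin, here at lncRNA ends. Peaks were called in 5434 and 5059 regions in the wild-type libraries and in 4122 and 4121 in the mutant libraries, with means of 5246 ± 265 and 4122 ± 0.707 (SD, n = 2 libraries each). Both wild-type values were above both mutant values. The ratio of means was 1.27 and the two-sided exact permutation p was 0.333, the smallest that 2 against 2 libraries allow. Of 10825 lncRNA genes with an eligible end, 37.9% and 36.0% had a called end in wild type and 31.2% and 31.1% in mutant (means 36.96 ± 1.37 and 31.12 ± 0.0588, SD, n = 2; ratio 1.19, exact permutation p = 0.333). The groups did not overlap in either measure, but the design cannot pass a threshold of 0.05. Nor did they overlap over all autosomal regions, of which 88.9% and 82.0% were called in wild type and 65.9% and 65.1% in mutant. Of the regions at lncRNA ends the shares were 92.3%, 86.0%, 70.0% and 70.0% in the same order. Regions that entered through wild-type lists alone are among those counted and add to the wild-type counts only. Fewer entered through mutant lists alone, so the ratio of 1.27 is not independent of how the set was formed. The share of each list that fell in regions at lncRNA ends was alike: 3.54% and 3.57% of wild-type peaks and 3.57% and 3.61% of mutant peaks.

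Wild-type peaks were more numerous and narrower. Their median width at lncRNA ends was 350 and 377 bp, against 542 and 520 bp in the mutant libraries (means 363.5 ± 19.1 and 531 ± 15.6, SD, n = 2; exact permutation p = 0.333). The length covered by peaks in these regions was 2.87 and 2.82 Mb in wild type and 2.90 and 2.80 Mb in mutant, and here the groups overlapped (exact permutation p = 1.0). The lists differed in construction in the same direction: the shortest peak was 64 and 65 bp in wild type and 73 and 87 bp in mutant, and adjacent peaks were at least 257 and 261 bp apart against 293 and 349 bp. With the same number of peaks taken from every list, 116435 with the highest −log10 p, 4055 and 4063 regions were called in wild type and 4061 and 4111 in mutant, a ratio of 0.993 (exact permutation p = 0.667). The groups overlapped in this setting, so the difference in the number of called regions was not kept with equal numbers of peaks per list. In the same setting the median widths were 482 and 482 bp in wild type and 549 and 521 bp in mutant, a ratio of 0.9 in place of 0.685. The median width over all autosomal peaks of each list is not given here.

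**Figure D3:**
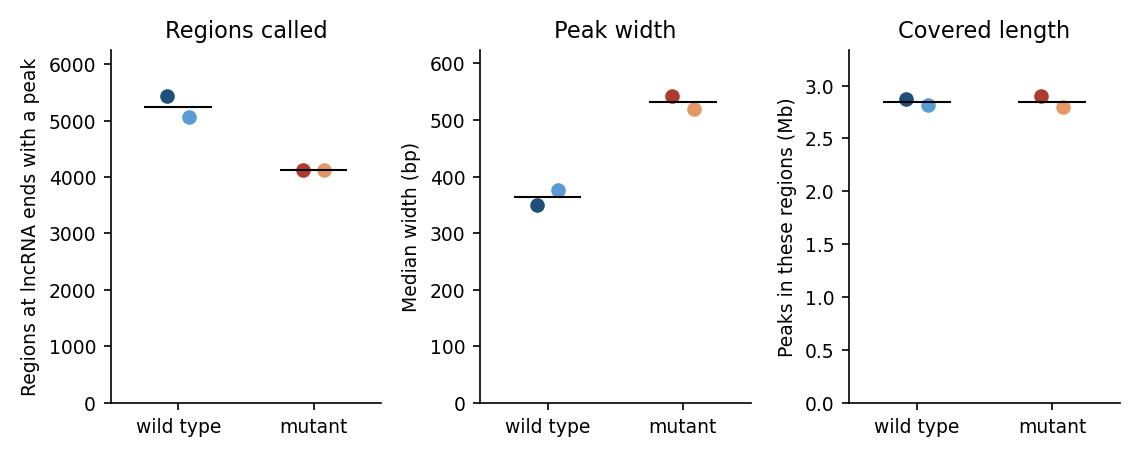
Regions at lncRNA ends with a peak (left, count), median width of their peaks (middle, bp) and length covered by peaks in them (right, Mb) in each library; points are libraries and lines the means of 2. Wild-type libraries lie above mutant ones on the left (5434 and 5059 against 4122 and 4121), below them in the middle, and overlap them on the right.

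The strongest regions were sought among those called in all 4 libraries, so their presence in every library follows from the ranking. They were ranked by the authors' fold enrichment, the pileup of a peak over its local background, taking the lowest of the 4 values. These folds are relative to the background of each library, so they stand side by side below and were not tested between genotypes. Both wild-type folds were above both mutant folds at 2443 of the 3719 regions called in all 4 libraries (65.7%), and at 66.8% of all autosomal regions called in all 4. The reverse held at 6.56% and 5.94%. Folds that do not overlap between the genotypes, with wild type higher, are therefore the common case among these regions and among all regions. Libraries are given in the order wild type 1, wild type 2, mutant 1, mutant 2. Among the 10 strongest, Gm24463 (chr9:89066506-89067087) had folds of 14.9, 12.8, 11.6 and 15.8, and Gm38944 on chromosome 7 had 12.9, 12.6, 10.6 and 11.7. To these 10 also belonged Gm32518, Gm51663 and A430010J10Rik, the last with 15.2, 13.8, 10.1 and 11.4. These lncRNAs are known by a clone or model number, and no function is given for any of them here.

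The remaining regions named from the strongest 10 lay near genes of various kinds. Gm32652 (chr1:164898687-164899430) had folds of 13.8, 13.1, 10.3 and 10.5, and its nearest protein-coding end, 32.2 kb away, was that of Xcl1, a chemokine of T and NK cells. Gm30771 (chr7:38060967-38061839; 11.4, 10.3, 9.93 and 10.6) lay 36.1 kb from Ccne1, the G1/S cyclin E1. Gm40900 (chr12:115703431-115704125; 12.9, 11.2, 10.2 and 10.4) lay in the immunoglobulin heavy chain locus, 11.2 kb from the variable segment Ighv1-70 and 344 kb from the nearest protein-coding end. Gm15910 (11.5, 11.3, 10 and 10.5) lay inside Msrb3. The widest region, 6886 bp at AY036118 on chromosome 17, had low folds of 2.88, 2.96, 2.60 and 2.47. The next widest, 5820 bp at 1700016A09Rik inside Gse1 and 5163 bp at Unc45bos, had folds between 2.23 and 3.90. Gm33699 (4520 bp) and Gm35290 (4291 bp, inside Anks1) stood between 2.05 and 2.44. Width and fold thus ranked different lncRNAs first.

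Host genes of snoRNAs, RNAs that guide modification of ribosomal RNA, had some of the most open named ends. Of 21 hosts 8 were eligible. Both ends of every other host, among them Gas5 and Snhg1, lay within 5 kb of protein-coding ends, so those hosts are not described. Of the 8 eligible hosts 7 had a region at an end, and 8 of their 10 regions (80.0%) were called in all 4 libraries. The share was 63.2% of all regions at lncRNA ends and 56.7% of all autosomal regions. Dancr (chr5:74092562-74093643) had folds of 9.29, 9.17, 8.60 and 8.50. Snhg5 (chr9:88522526-88523852) had 8.93, 9.05, 7.81 and 8.04 at its start, and Snhg17 had 6.58, 6.61, 6.98 and 6.82. Snhg15 had 7.25 and 7.18 in wild type and 3.40 and 4.06 in mutant. A 158 bp region 747 bp from the 3′ end of Snhg17 had 6.73 and 6.18 in wild type and 2.86 and 3.06 in mutant. At both, wild type was higher without overlap, as at 66.8% of all regions called in all 4 libraries. Snhg20 and Snhg4 were open in every library too. Snhg11 had its start called in all 4 libraries, and a 261 bp region 156 bp from its 3′ end called in both wild-type libraries only (2.52 and 2.38). Inside Snhg5, a 319 bp region was called in both mutant libraries only (1.48 and 1.48), 547 bp from the nearest wild-type peak. Snhg14 had no peak within 1 kb of either end.

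Of 18 eligible hosts of miRNAs 11 had a region, and 7 of their 14 regions were called in all 4 libraries, near the 56.7% of all autosomal regions and the 63.2% of regions at lncRNA ends. Whether this share differs from that of the snoRNA hosts was not tested. Mir99ahg (chr16:77328879-77329712) had folds of 7.27, 7.97, 6.81 and 6.44, the highest of this list. Dleu2 (chr14:61680569-61683397), whose miRNAs restrain lymphocyte growth, had a 2829 bp region at its start with 3.99, 3.98, 3.6 and 3.75. Mir9-3hg and Mir124a-1hg, hosts of miRNAs known from neurons, were called in every library, with 5.54, 5.45, 5.53 and 5.66 at the 3′ side of the first and 4.52, 4.37, 3.88 and 3.69 at the second. Carmn, a host of smooth-muscle miRNAs, had 5.89, 4.43, 3.46 and 3.65. Mirc35hg stood between 3.08 and 3.28. Dnm3os had a 256 bp region at its start in both wild-type libraries (2.91 and 2.82) and in no mutant library, where the nearest peak was 3495 bp away. Mir17hg, host of a Myc-regulated miRNA cluster, had no peak within 1 kb of either end. The regions at Mir155hg and Mir22hg lay within 5 kb of protein-coding ends and so were not among those described.

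The list called widely expressed is a set of gene names, and expression was not measured here. It had 16 regions at 9 of 12 genes. Of these regions 14 (87.5%) were called in all 4 libraries, beside 63.2% at all lncRNA ends and 56.7% of all autosomal regions. Oip5os1, a cytoplasmic lncRNA that promotes the decay of a miRNA, had 9.03, 8.91, 6.70 and 7.02 at its start (chr2:119593877-119595048). Norad, which binds Pumilio proteins, had 6.92, 6.07, 6.75 and 7, and Neat1, the scaffold of paraspeckles, 6.44, 6.48, 5.89 and 5.72. Miat had a region at each end, with 4.74, 4.71, 5.45 and 4.39 at the 5′ end. Malat1, a nuclear speckle RNA, had 5.36, 4.24, 3.17 and 3.37 at the 5′ end and 2.46, 3.1, 2.34 and 2.33 at the 3′ end. Lncpint, a target of p53, had 3.68, 3.43, 3.41 and 3.48. A region at Trp53cor1 that it shares with Gm41556 had 4.85, 4.47, 3.25 and 3.50. Tug1, Crnde and Pantr1 had regions only within 5 kb of protein-coding ends and so contributed none.

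Imprinted lncRNAs, expressed from one parental chromosome, had regions at 6 of 10 genes, and 4 of the 7 regions (57.1%) were called in all 4 libraries, near the background of 56.7%. Peg13, inside Trappc9, had the highest folds of the list (7.24, 6.86, 5.01 and 5.13). Kcnq1ot1 (chr7:143295301-143296949) had 5.47, 5.52, 4.37 and 4.48 at its start, Airn inside Igf2r had 3.29, 3.26, 2.80 and 2.96, and H19 had 3.24, 3.21, 2.79 and 2.69. All 4 were called in every library. Mirg and Meg3 of the Dlk1-Dio3 domain differed from them: a region at Meg3 was called in wild type 2 only, and Mirg had one region in both wild-type libraries only (2.21 and 2.70) and one in 3 libraries. Mirg is also counted among the hosts of miRNAs. Peak lists do not separate the parental alleles.

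Blood and immune lncRNAs had 9 regions at 5 of 7 eligible genes, 8 of them (88.9%) in all 4 libraries, beside the same 63.2% and 56.7%. AW112010 and Mirt1 gave 3 of these regions each. Dleu2 is also counted among the hosts of miRNAs, and Pvt1 among the widely expressed lncRNAs. Ptgs2os2, an inflammation-induced lncRNA of macrophages, had 6.05, 5.95, 5.13 and 5.41 at its start. AW112010, induced in activated immune cells, had 3.26, 3.04, 2.75 and 2.87 at its start and 2 weaker regions. Mirt1 had 3 regions with folds between 2.40 and 4.20. Pvt1 stood between 4.62 and 4.92.

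Of 16 eligible lncRNAs known from the development of other tissues 7 had a region, and 5 of 8 regions (62.5%) were called in all 4 libraries, near the 63.2% of all regions at lncRNA ends and the 56.7% of all autosomal regions. Fendrr, a lateral mesoderm lncRNA next to Foxf1, had a 393 bp region 168 bp from its 3′ end with folds of 10.2, 8.19, 6.21 and 5.71. Bvht, known from heart development, had 7.28, 7.53, 7.82 and 7.54 at one end and 3.71 to 4.73 at the other. Nkx2-2os had 4.87, 5.47, 3.66 and 4 at its start. Hottip, at the edge of the HoxA cluster, had 2.47, 2.15, 1.95 and 1.93 in a region 1000 bp from its 3′ end, at the limit of the rule. Hotair, Halr1 and Hand2os1 had 1 region each in this set, with a peak in 1 wild-type library. Hotair and Hand2os1 each had another region within 5 kb of a protein-coding end, which is not described here. Dlx6os1, Evx1os, Gata6os, Otx2os1, Pax6os1, Six3os1 and Wt1os had regions only within 5 kb of protein-coding ends and so contributed none. Sox2ot and Rmst had no peak within 1 kb of either end.

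**Figure D4:**
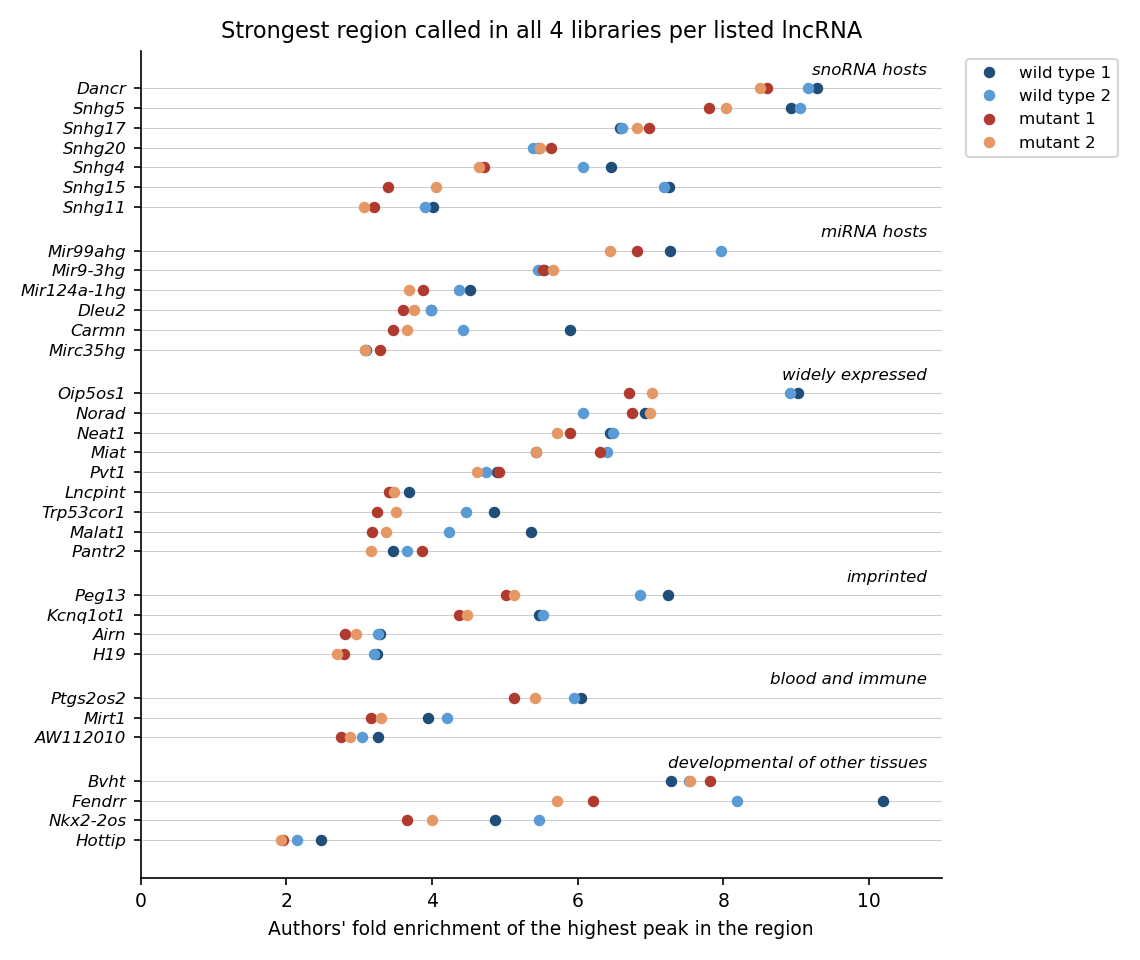
Authors' fold enrichment (x axis) in each of the 4 libraries at the strongest region called in all 4, for 33 lncRNAs of the 6 lists of hosts, imprinted, widely expressed, immune and developmental lncRNAs (rows). Dancr, Snhg5, Oip5os1 and Fendrr reach the highest values and Hottip the lowest; folds are relative to each library's own background.

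Opposite-strand lncRNAs, named for a gene they overlap or neighbour on the other strand, had regions at 67 of 151 eligible genes. Some of the other eligible genes, among them Junos and Lhx1os, had regions only within 5 kb of protein-coding ends. Some genes of this list, such as Dnm3os and Oip5os1, are also counted in lists above. Of their 92 regions 56 (60.9%) were called in all 4 libraries, near the 63.2% of all regions at lncRNA ends and the 56.7% of all autosomal regions. Of the 76 called in both wild-type libraries 11 (14.5%) were only in wild type, near the background of 15.0%. Only in mutant was 1, at Tbc1d22bos, of 58 called in both mutant libraries, with a background of 1.73%.

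Regions with a peak in both wild-type libraries and in neither mutant library numbered 646 of 4739 (13.6%, exact binomial interval 12.7 to 14.6, counting error only). Over all autosomal regions it was 15.0%, so the share at lncRNA ends was near the background. It was 6.25% at protein-coding ends and 16.4% in distal regions. These regions were weak and narrow: their median width was 196 bp, their lower wild-type fold had a median of 2.34, and 6 of them had a lower fold of 4 or more. The 3719 regions called in all 4 libraries had a median width of 725 bp, and 1372 of them had a lowest fold of 4 or more. These measures are not alike. The first set was merged from wild-type peaks alone and the second from peaks of all 4 lists. The lower wild-type fold stands beside the lowest fold of all 4 libraries. When the autosomal regions that both wild-type libraries had were put into 4 classes of equal size by their lower wild-type fold, the share only in wild type at lncRNA ends was 42.8%, 15.5%, 1.35% and 0% from the weakest to the strongest class, and over all regions 41.2%, 17.1%, 1.7% and 0.112%. Thus none of 1211 regions above a fold of 5.13 was only in wild type. A mutant peak lay within 1 kb of 151 of the 646 regions (23.4%), and at 122 (18.9%) the nearest was more than 10 kb away. Without wild type 2, 1208 regions were called only in wild type.

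The 10 strongest of these regions were led by Platr27 (221 bp, folds of 6.20 and 4.80 in wild type 1 and 2), Gm51713 (5.35 and 4.44) and Gm46983 (4.74 and 4.43). The region at 4930431F10Rik (chr10:44730803-44731039) had folds of 4.52 and 4.28 and no mutant peak within 102997 bp. Its nearest protein-coding gene, at 202 kb, was Prdm1, which encodes a repressor of transcription in lymphocytes. Gm36062 (6.86 and 4.17) and Gm41714 (7.09 and 4.09) had higher values in wild type 1 than in wild type 2. Gm36905, at 562 bp the widest of the 10, held its 5′ end and had 5.48 and 3.91, with a mutant peak 1124 bp away. For Gm40031, Gm32738 and 4930593C16Rik the lower fold was 3.88, 3.84 and 3.71. At all 10 the mutant libraries are described only by the lack of a called peak, which in a list with no counts is not a level of 0.

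In the other direction, 35 of 3832 regions called in both mutant libraries had no wild-type peak (0.913%, exact binomial interval 0.637 to 1.27, counting error only). The share was 1.73% of all autosomal regions, 0.457% at protein-coding ends and 2.15% in distal regions, and these differences were not tested. Their median width was 285 bp, and none reached a lower fold of 4. Gm38403 had 3 and 4.13 in mutant 1 and 2, Gm36405 3.92 and 2.93, Gm19437 3.2 and 2.88, and Tbc1d22bos 2.49 and 3.11. The other 6 of the 10 strongest, at 1700092C02Rik, Gm34526, Gm40210, 2610300M13Rik, Gm39165 and Gm41220, had folds between 2.27 and 2.99. The region at Gm36405 was 1 of 5 at that gene, with a wild-type peak 553 bp away. At 12 of the 35 (34.3%) a wild-type peak lay within 1 kb. Leaving out 1 library raised the count to 61 (without wild type 2), 74 (without mutant 1), 87 (without wild type 1) or 92 (without mutant 2). With equal numbers of peaks per list, 160 regions were only in wild type (4.25%, against 4.92% of all regions) and 175 only in mutant (4.60% against 6.96%).

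Genes with the most regions were not those with the strongest ones. A count of 5 regions was reached by 6 genes, of which Gm33829, Gm34608, Gm36405, Gm38894 and Gm4651 were taken in alphabetical order. Gm33829, inside Mgat5b, had none called in all 4 libraries, 3 called only in wild type, and folds of 2.15 to 2.62. Gm34608 also had 3 only in wild type, with 1 in all 4. Gm38894 had none in all 4. Gm4651, inside Mical3, had 2 regions in all 4 libraries, with folds of 4.22 to 6.03, and 3 regions of 109 to 153 bp in wild type 1 only.

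Of the regions at lncRNA ends, 4 lay within 2 Mb downstream of the start of Myc, the span that holds the mutated enhancer, and all were called in every library. At Pvt1 (chr15:62037042-62039419), 46.7 kb from Myc, folds were 4.89, 4.74, 4.92 and 4.62. Gm41334 had 2.76, 2.69, 2.48 and 3.06. Gm20740 (chr15:63479361-63479850), which held the 5′ end, had 4.96 and 5.02 in wild type and 3.66 and 3.07 in mutant. Gm41336 had 5.99, 7.70, 7.43 and 6.20. The wild-type values were above the mutant values at Gm20740, and the groups overlapped at the other 3, beside the 66.8% of all such regions at which wild type was above mutant.

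Regions whose nearest protein-coding gene was a DN3 marker gene were looked at after the values were known. At Gata3, the GATA factor of early T cells, Gm13218 (chr2:9593333-9594562), 263 kb away, had 6.84, 6.11, 5.44 and 5.42. Also nearest to Gata3 were Gm13219, called in all 4 libraries, 9230102O04Rik, called in 3, and 4930412O13Rik, called only in wild type with 1.55 in each library and with a mutant peak 238 bp away. Gm34041, 8.02 kb from Rag1, a subunit of the V(D)J recombinase, was called in wild type only (2.48 and 3.21), with the nearest mutant peak at 4134 bp. Of all autosomal regions called in both wild-type libraries, 15.0% had no mutant peak. Gm39760 inside Il2ra was called in 3 libraries (2.06, 2.00 and 1.63). A region at Gm30217, 34.8 kb from Tcf7, a Notch-induced HMG box factor, had 3.91, 3.08, 2.63 and 3.06. At Bcl11b, the T-cell commitment factor, 4930465M20Rik had 2 regions in all 4 libraries, 175 and 187 kb away, with 3.63, 3.53, 3.24 and 2.88 at the nearer one.

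Sequence at the starts was read for 8618 RefSeq start windows of 7121 lncRNA genes more than 5 kb from protein-coding ends. The start base lay in a peak at 14.5% and 14.1% of these in wild type and 13.3% and 13.4% in mutant, in all 4 libraries at 993 (11.5%) and in none at 83.9%. Of 20085 protein-coding starts, 59.7% were in a peak in all 4. Open lncRNA starts were richer in CpG than closed ones: the ratio of observed to expected CpG had a median of 0.353 at starts in a peak in all 4 libraries, 0.269 at those in 1 to 3, and 0.199 at those in none. Open protein-coding starts had 0.778. Counting a window as CpG-rich at a ratio of at least 0.6 with at least 50% G and C, 213 of 993 open lncRNA starts (21.5%) were CpG-rich, against 24 (6.03%) and 90 (1.25%) of the other classes and 72.5% of open protein-coding starts. The other 780 open lncRNA starts were not CpG-rich. Among the windows printed above, Dancr, Snhg5, Oip5os1 and Dleu2 were CpG-rich, and Gm40900, Gm15910 and Mir99ahg were not. At CpG-rich starts the regions were 1300 bp wide in the median with a lowest fold of 4.88, against 1010 bp and 3.92 elsewhere. Windows of one gene can overlap, and these are shares with no test.

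**Figure D5:**
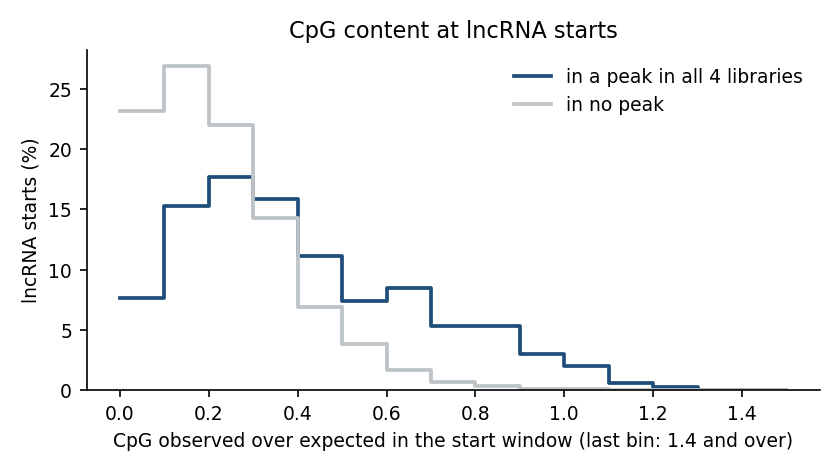
Distribution (y axis, % of starts) of the ratio of observed to expected CpG (x axis) in lncRNA start windows, for the 993 in a peak in all 4 libraries and the 7227 in no peak. The open starts reach further to the right, with medians of 0.353 and 0.199.

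Motif shares differed by class of start. The Ets motif occurred in 29.4% of open lncRNA windows, 20.8% of those in no peak and 23.9% of all 31396 windows of both gene kinds. The E-box occurred in 25.2%, 19.5% and 20.5%, and the Runx motif in 23.7%, 21% and 16.7%. The Gata motif was in fewer open than closed windows, 10.9% against 16.6%, with 11.2% over all. The Rbpj motif had 26.0%, 28.7% and 25.3%, and the Tcf7 and Lef1 motif 6.85%, 6.59% and 5.09%. The windows also differed in base composition: the median G and C content was 52.7% in open and 46.3% in closed lncRNA windows, and its part in these shares was not tested.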

How the data were processed

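Chromatin accessibility was measured by ATAC-seq in 4 DN3 libraries, 2 per genotype, each with its own peak list, so no peaks were called on pooled libraries. The submitters' processing notes name MACS2 2.1.1, SAMtools 1.7, Bowtie2 2.3.3.1 and cutadapt 1.16, and the build mm10. How these were ordered and set, and whether reads were shifted, is not given in the sources used here. The deposited values per peak are a score, a fold enrichment (a ratio to local background, the authors' own value), a −log10 p and a −log10 q. Within a list they served to describe, rank and filter peaks.

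Peaks on chromosomes 1 to 19 were merged and set against the RefSeq gene table of GRCm38.p6 in Python 3.11.15 (pandas 2.3.3, numpy 2.4.6, scipy 1.17.1, matplotlib 3.10.9). A library had a region if a peak overlapped it by 1 bp. The fold of a region is that of its highest peak in a library. Per-library values were compared by two-sided exact permutation, and intervals are exact binomial (95%). The intervals treat regions as independent and leave out the spread between libraries. No count model was fitted, since the lists hold no counts. Joining and annotation were tested on simulated data.

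Named regions come from the 10 strongest and 5 widest, the 10 strongest called only in each genotype, 5 genes with most regions, those near Myc and those at listed lncRNAs, of which some appear only in counts. Regions and lists were chosen with earlier results of these data known. The region ranked first by fold is not reported here. The 7 windows printed and the regions near DN3 markers were chosen after values were seen. Alternatives were a −log10 q of at least 5, a common minimum length and gap, equal numbers of peaks, 50% cover, other distances, each library left out, and pairing by replicate number. Numbers were not taken to pair libraries: over regions called in all 4, the differences in log2 fold between replicates 1 and 2, computed from the deposited folds, had a correlation of -0.094 between genotypes.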

Additional observations from a re-analysis of the deposited data

How the results depend on the processing

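No test here can pass 0.05 with 2 libraries a genotype. The ratio of regions called, wild type over mutant, was 1.27. With equal numbers of peaks per list it was 0.993 and the groups overlapped (exact permutation p = 0.667). Leaving out 1 library gave 1.23 to 1.32. The ratio of lncRNA genes with a called end (1.19) kept its direction in all 12 alternatives. With equal numbers it was 1.01, from 31.2% and 31.0% in wild type and 30.9% and 31.0% in mutant, so little difference was left. The ratio of peak width (0.685) kept its direction in all 11 run. It was 0.9 with equal numbers, 0.77 at a −log10 q of at least 5, and 0.777 with a common minimum length and gap. Without 1 library it was 0.659 to 0.71. Pairing by replicate number (replicate block) gave ratios of 1.27, 1.19 and 0.685 with an exact p of 0.5 each, the smallest 2 pairs allow. Regions only in wild type numbered 646, and 276 at a −log10 q of at least 5, 160 with equal numbers, 393 within 500 bp, 1059 within 2 kb, and 827 to 1208 without 1 library. Regions only in mutant numbered 35, and 175 with equal numbers, 164 at 50% cover, 22 within 500 bp, 61 within 2 kb, and 61 to 92 without 1 library. The distances change how many regions qualify, and leaving out a library loosens the rule; for the other settings the cause was not tested. The share called in all 4 libraries (63.2%) was 70.1% at a −log10 q of at least 5, 66.7% with a common minimum length and gap, 71.5% with equal numbers, 50.3% at 50% cover, 68.1% within 500 bp and 60.7% within 2 kb. Peak width has no value of its own at 50% cover, and the share in all 4 has none without a library. The unknown depth of each list limits every statement that a peak is missing.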
